A study of Mus musculus with 6 samples.

Results

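The cytosolic ribosomal proteins build the ribosome of the cytoplasm, and their mRNAs were followed here in mouse Th17 cells with and without a deletion aimed at pyruvate dehydrogenase (PDH). Members were taken by symbol: every gene whose symbol starts with Rpl or Rps followed by a digit or the letter a, together with Rplp0, Rplp1, Rplp2 and Fau, leaving out pseudogenes whose symbol holds -ps and the Rps6k kinases. This rule found 87 of the 15452 genes in the deposited table. Of these, 32 encode core proteins of the small subunit, 46 encode core proteins of the large subunit, and 5 are paralogs of a core gene (Rpl36al, Rpl22l1, Rpl7l1, Rpl39l and Rps27l). A further 3 are annotated as pseudogenes despite their symbols (Rpl37rt, Rps3a3 and Rps4l), and Rps19bp1 encodes a protein that binds a ribosomal protein and is no subunit itself. Rack1, a protein of the small subunit, falls outside the rule and is given with the other lists.

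The study sequenced polyadenylated RNA from 6 Th17 cultures. The 3 WT libraries were from mice whose PDH alleles are floxed and which lack Cre, and the 3 knockout libraries were from mice with the same floxed alleles and CD4 Cre, which is active from the developing T cell onwards, so both groups carried the floxed alleles and Cre was present only in knockout. In both groups naive CD4+ T cells from spleen and lymph nodes were sorted on magnetic beads and kept for 3 days with plate-bound anti-CD3 (5 µg/mL), anti-CD28 (1 µg/mL), IL-6 (30 ng/mL), TGFβ (2 ng/mL) and anti-IFNγ (5 µg/mL). Sample titles write the floxed locus as PHD and the genotype labels write PDH, the spelling used here. The labels do not say which gene of the PDH complex was floxed, or whether the libraries of a group came from separate mice. The p-values below therefore set group differences against a spread between libraries that may be technical.

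A ribosome holds a small subunit, which reads the mRNA, and a large subunit, which joins amino acids. Each carries ribosomal RNA and a set of proteins that is made in balanced amounts. Most mRNAs of ribosomal proteins begin with a C followed by a run of pyrimidines, the 5′ terminal oligopyrimidine (TOP) tract, through which the kinase mTOR and the RNA-binding protein LARP1 control their translation and stability. Activated T cells enlarge this machinery strongly as they grow and divide.

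The start regions of 7 named members, picked by hand, are printed as examples of the place where a TOP tract would lie. Each sequence runs from 20 bases before the annotated RefSeq start of transcription to 25 bases from that start onwards on the transcribed strand (RefSeq, GRCm38.p6), and capitals mark a C at the start with at least 4 further bases that are each C or T. The first 4 carry such a tract, and the last 3 do not at the annotated base. Transcription that begins at another base in these cells would not show here. The windows therefore do not settle which of these mRNAs carry a TOP tract.
Fau, chr19:6057927-6057971, plus strand: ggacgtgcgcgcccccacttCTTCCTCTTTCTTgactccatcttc
Rps27, chr3:90213624-90213668, minus strand: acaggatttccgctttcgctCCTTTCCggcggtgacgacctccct
Rplp2, chr7:141447631-141447675, plus strand: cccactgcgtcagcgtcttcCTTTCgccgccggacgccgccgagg
Rps6, chr4:86857343-86857387, minus strand: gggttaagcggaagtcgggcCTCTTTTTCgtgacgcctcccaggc
Rpl36al, chr12:69184043-69184087, minus strand: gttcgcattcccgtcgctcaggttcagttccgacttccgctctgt
Rplp0, chr5:115559447-115559491, plus strand: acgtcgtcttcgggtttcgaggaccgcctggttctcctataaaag
Rpl7l1, chr17:46782632-46782676, minus strand: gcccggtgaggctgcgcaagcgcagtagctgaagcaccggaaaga
Fau, Rps27, Rplp2 and Rpl36al were lower in knockout, Rps6 was not called, and Rplp0 and Rpl7l1 had the highest fold changes of the 87, neither of them called. The tract was also longer in Fau (13 bases) and Rps6 (9) than in Rps27 (7) and Rplp2 (5). Among named members not printed, Rpl22 (-0.49) and Rpl22l1 (-0.56) were lower and had no tract at the annotated start. Rps19 (0.02) had none either and was not called. Rps27l (0.00), also not called, had a tract of 5 bases that began 1 base after the start.

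Total counts ran from 33802154 to 40407124 per library. Levels are given as counts per 1000000 (CPM) scaled by TMM, a factor that aligns the bulk of genes between libraries, and folds as log2 of knockout over WT ± SE. Pdha1, the E1 alpha subunit gene of PDH, was at 256, 236 and 251 CPM in WT and at 198, 193 and 186 CPM in knockout (-0.36 ± 0.058, adjusted p = 0.000871). Dlat, another gene of the complex, fell more (-0.681 ± 0.058, adjusted p = 3.55e-05), and Pdhb missed the threshold (-0.145 ± 0.058, adjusted p = 0.063). The labels name none of these genes as the floxed one. All these values are counts over the whole gene, in which a lost exon need not show. All 11 of 11 listed Th17 and CD4 T cell markers were measured. They summed to 2600 to 3060 CPM in WT and 2000 to 2230 CPM in knockout by library totals, lower in every knockout library. Of the 11, 6 (54.5%) were lower and 1 (9.09%) higher at an adjusted p under 0.05, where 24.5 and 23.1% of all tested genes were. Knockout replicate 2 held 4.948% of its counts on 1 unnamed entry, against 0.080 to 0.215% in the other libraries. All 10 of 10 B cell markers were measured, and their sum was 69.1, 130 and 57.5 CPM in WT and 67.7, 150 and 225 CPM in knockout. CD8 T cell markers summed to 8.68 to 11.3 and 5.58 to 14.9 CPM, and myeloid markers (6 of 7) to 8.83 to 22.2 and 5.73 to 10.1 CPM. Of 4 NK cell markers 1 was measured, and of 5 erythroid markers 0.

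Messenger RNAs of cytosolic ribosomal proteins took a smaller part of the library in knockout. They held 8.32, 8.27 and 8.09% of the counts in the WT libraries and 7.53, 7.15 and 7.32% in the knockout libraries. Every knockout library lay under every WT library, and the groups did not overlap. The means were 8.22% ± 0.123 (SD, n = 3) in WT and 7.33% ± 0.193 (SD, n = 3) in knockout, a ratio of 0.891. After the 16 other genes and entries that ranked among the 10 most abundant of any library were taken out of the totals, among them the entry raised in knockout replicate 2, the shares were 8.88 ± 0.137 and 8.05 ± 0.137%. In RNA from a whole culture, fewer cells of a type and less RNA per cell cannot be told apart, and a share says nothing of the absolute amount.

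**Figure D1:**
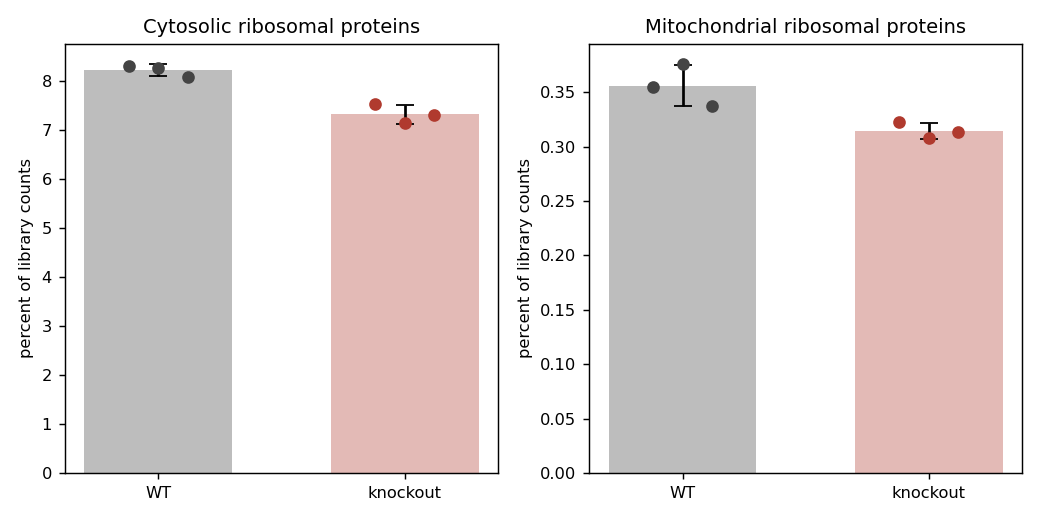
Percent of each library's counts on cytosolic ribosomal protein genes (left) and mitochondrial ribosomal protein genes (right); points are libraries, bars the group means and whiskers the SD of 3 libraries. In both panels the 3 knockout points sit under the 3 WT points, with means of 7.33 against 8.22% on the left and 0.315 against 0.356% on the right.

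Gene by gene, 50 of the 87 members were lower in knockout, none was higher and 37 were not called by edgeR's quasi-likelihood test at an adjusted p under 0.05. Over all 15361 tested genes the same test called 24.5% lower and 23.1% higher. The median log2 fold change was -0.24 over the members, with quartiles of -0.36 and -0.16, against 0.01 over all tested genes, and 80 of 87 lay below 0. Scaling on other genes of short coding sequence, described with coding length below, moved this median to -0.02 and left 47 of 87 below 0. The groups did not overlap in 60 members that were lower and in 1 that was higher, against 29.4 and 28.8% of all tested genes. Leaving out WT replicates 1, 2 and 3 in turn gave 35, 43 and 55 lower members (18.9, 23.6 and 23.3% of all genes were lower there). Leaving out knockout replicates 1, 2 and 3 in turn gave 43, 39 and 43 (22.2, 20.8 and 20.4%). None was higher in 5 of these 6 fits, in which 16.9, 21.6, 20.3, 18.8 and 17.9% of all genes were, and 2 were without WT replicate 2, where 21.5% of all genes were. With upper-quartile factors 35 were lower and 2 higher (19.1 and 28.5% of all genes), with library totals 37 and 2 (20.6 and 25.1%), by DESeq2 60 and 1 (24.3 and 21.1%), by limma-voom 55 and 0 (24.3 and 23.3%), and at 50 counts or more in 3 libraries 43 and 2 of 84 (26.1 and 26.2%). When knockout was tested against a fold of 1.2 rather than against no change, 9 members were still called lower, where 12.1% of all genes were.

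The decreases were shallow. Of the 83 core genes and paralogs, 14 were at 75% of the WT level or less and 30 at 75 to 85%. Another 30 were at 85 to 95%, 7 within 5% of the WT level, and 2 above that. Called lower were 13 of the 14, 28 of the 30 and 9 of the next 30. Calls and fold sizes come from the same values, so this order is largely built in. Of the 37 members without a call, 13 had an adjusted p between 0.05 and 0.1. In 12 of the 37 the groups did not overlap, 11 of them lower and 1 higher (Rplp0). Over all tested genes, called or not, 29.4% were lower and 28.8% higher without overlap, so this count is no sign of a change by itself. A missed threshold is also not evidence of an equal level.

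**Figure D2:**
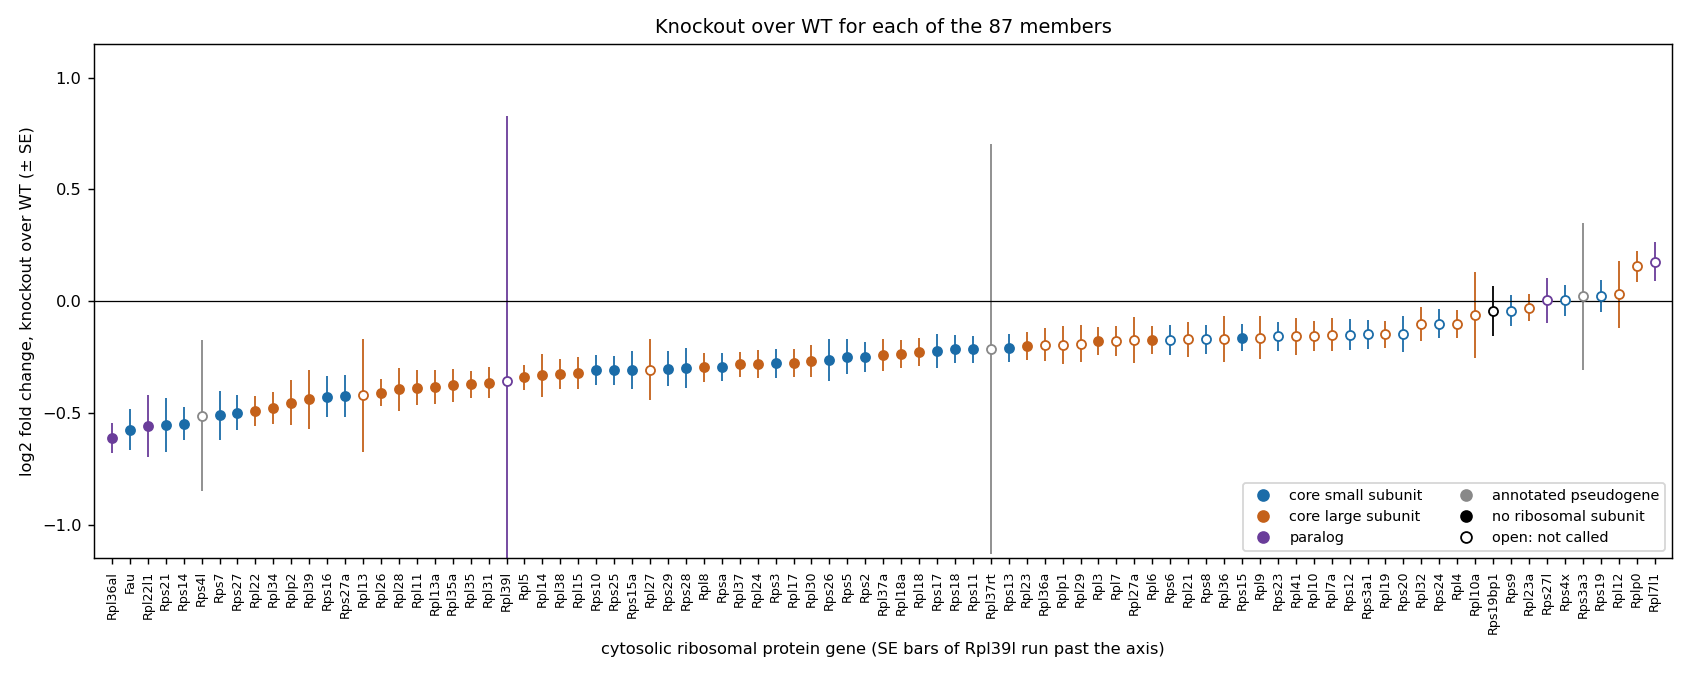
Log2 fold change of knockout over WT with its SE for each of the 87 members in order of fold change; colours give the class of gene, filled points were called and open points were not. The row runs from -0.61 (Rpl36al) to 0.18 (Rpl7l1), and all 50 filled points lie below 0.

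With the usual scaling the decreases lay in both subunits. Of the 32 core genes of the small subunit 22 (68.8%) were lower and 10 were not called, with a median of -0.25. Of the 46 core genes of the large subunit 26 (56.5%) were lower and 20 were not called, with a median of -0.24. None in either subunit was called higher. Over all tested genes 24.5% were lower and 23.1% higher. Under scaling on other genes of short coding sequence 9 of all 87 members were lower, where 10.6% of all genes were.

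In the small subunit the steepest decrease was that of Fau (ENSMUSG00000038274.14), which encodes the protein eS30 joined to a ubiquitin-like protein. It was at 545, 509 and 436 CPM in WT and at 308, 331 and 361 CPM in knockout. Its lowest WT library lay well above its highest knockout library, and the fold change was -0.58 ± 0.092 (adjusted p = 0.000872). Rps14, a protein of the platform of the small subunit, was at 924, 883 and 781 CPM in WT and at 578, 582 and 610 CPM in knockout. The knockout libraries were close together and all of them under WT (-0.55 ± 0.075, adjusted p = 0.000369). Rps21 was at 245, 302 and 269 CPM in WT and at 211, 191 and 155 CPM in knockout, again without overlap (-0.55 ± 0.121, adjusted p = 0.0067). Rps7, which is also known to bind the p53 regulator MDM2, was at 549, 580 and 459 CPM in WT and at 412, 378 and 323 CPM in knockout (-0.51 ± 0.11, adjusted p = 0.00492). Its lowest WT library exceeded its highest knockout library by less than the range within WT. Rps27, a zinc-finger protein of the small subunit, was at 466, 525 and 444 CPM in WT and at 344, 357 and 314 CPM in knockout (-0.50 ± 0.079, adjusted p = 0.000843). The call of each of these 5 genes held in all 6 fits that left out 1 library.

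Differences were smaller in 3 further small subunit genes. Rpsa, a protein of the small subunit that has also been described as a laminin receptor, was at 3849, 3871 and 3631 CPM in WT and at 3075, 3103 and 3075 CPM in knockout. The knockout libraries nearly coincided and lay under WT (-0.29 ± 0.063, adjusted p = 0.00402). Rps6, the substrate of the S6 kinases, was at 1405, 1342 and 1273 CPM and at 1225, 1177 and 1162 CPM, so the groups did not overlap, but the difference was not called (-0.17 ± 0.066, adjusted p = 0.0528). It was called by DESeq2 and by limma-voom (adjusted p = 0.0124 and 0.0362) and without WT replicate 3 (adjusted p = 0.0356). Rps19, the gene most often mutated in Diamond-Blackfan anaemia, was at 784, 780 and 683 CPM in WT and at 769, 769 and 743 CPM in knockout. Its knockout values fell inside the WT range (0.02 ± 0.071, adjusted p = 0.822).

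In the large subunit Rpl22 (ENSMUSG00000028936.16), an RNA-binding protein required for the development of αβ T cells, was at 423, 443 and 415 CPM in WT and at 307, 324 and 281 CPM in knockout. The lowest WT library stood well above the highest knockout library (-0.49 ± 0.068, adjusted p = 0.000402). Rpl34 was at 554, 566 and 488 CPM in WT and at 396, 392 and 367 CPM in knockout, also without overlap (-0.48 ± 0.072, adjusted p = 0.000636). Rpl39, a small protein that lines the exit tunnel of the nascent chain, was at 584, 728 and 611 CPM and at 537, 496 and 386 CPM. Its groups did not overlap, but the call (-0.44 ± 0.132, adjusted p = 0.026) was lost without WT replicate 2 (adjusted p = 0.0802) or without WT replicate 3 (adjusted p = 0.0585).

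Rpl13a, known outside the ribosome as part of a complex that silences inflammatory mRNAs, was at 1620, 1777 and 1533 CPM in WT and at 1305, 1292 and 1181 CPM in knockout. All knockout values lay below all WT values (-0.38 ± 0.077, adjusted p = 0.00285). Rpl3, which reaches into the peptidyl transferase centre, was at 2540, 2399 and 2513 CPM and at 2220, 2200 and 2172 CPM. It passed narrowly (-0.18 ± 0.062, adjusted p = 0.0399) and kept the call in 1 of 6 fits that left out a library, the one without WT replicate 2, while adjusted p ran from 0.0641 to 0.159 without WT replicate 1, WT replicate 3 or any of the knockout replicates. It also lost the call with upper-quartile factors (-0.10, adjusted p = 0.224). Rpl10, which joins the large subunit late in its assembly, was at 1363, 1341 and 1342 CPM and at 1259, 1236 and 1136 CPM. Its groups did not overlap and it was not called (-0.16 ± 0.066, adjusted p = 0.0749), except by DESeq2 (adjusted p = 0.0248).

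The 3 genes of the P-stalk, the flexible arm of the large subunit that recruits elongation factors, did not move alike. Rplp0 (ENSMUSG00000067274.11), the base of the stalk, was at 3342, 3660 and 3217 CPM in WT and at 3918, 3762 and 3701 CPM in knockout. It is the only member in which every knockout library lay above every WT library, and the increase was not called (0.16 ± 0.071, adjusted p = 0.0995). It was called higher without WT replicate 2 (0.21, adjusted p = 0.0375), with upper-quartile factors, library totals or the stricter count filter (adjusted p = 0.014, 0.0443 and 0.0286) and by DESeq2 (adjusted p = 0.0459). Rplp2, which forms dimers with Rplp1 on that base, was at 523, 629 and 538 CPM in WT and at 455, 420 and 358 CPM in knockout. It was lower without overlap (-0.46 ± 0.101, adjusted p = 0.00538). Rplp1 was at 1589, 1624 and 1325 CPM and at 1303, 1303 and 1360 CPM, where WT replicate 3 fell among the knockout libraries (-0.20 ± 0.084, adjusted p = 0.083). Without that library Rplp1 was called lower (-0.28, adjusted p = 0.00954), as it was by DESeq2 (adjusted p = 0.0462).

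Within a library the scaling cancels, so the ratio of the base to its partners was read directly, a comparison chosen after the values were seen and therefore given with no test. A shift that goes with coding length, described below, does not cancel. Rplp0 has 951 coding bases against 345 in Rplp2 and 342 in Rplp1, and the part of length in these ratios was not tested. Rplp0 had 6.39, 5.82 and 5.98 counts for each count of Rplp2 in WT and 8.61, 8.96 and 10.3 in knockout. For each count of Rplp1 it had 2.10, 2.25 and 2.43 in WT and 3.01, 2.89 and 2.72 in knockout. Both ratios were higher in every knockout library than in any WT library, by 0.61 and 0.35 on the log2 scale. The ratio of Rplp1 to Rplp2 was 3.04, 2.58 and 2.46 in WT and 2.86, 3.10 and 3.80 in knockout, and the groups overlapped.

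Genes made as fusions and genes of the 5S particle were lower with the usual scaling. Besides Fau, Rps27a, which encodes ubiquitin joined to the protein eS31, was at 1176, 1389 and 1136 CPM in WT and at 972, 952 and 832 CPM in knockout. The groups did not overlap (-0.42 ± 0.094, adjusted p = 0.00464). Rpl5 and Rpl11 enter the ribosome with the 5S RNA, and outside it they can bind MDM2 together. Rpl5 was at 794, 793 and 782 CPM in WT and at 615, 624 and 632 CPM in knockout, with little spread in either group (-0.34 ± 0.057, adjusted p = 0.0011). Rpl11 was at 813, 870 and 792 CPM and at 674, 649 and 570 CPM (-0.39 ± 0.078, adjusted p = 0.00287). Neither gene overlapped between groups, and both calls held in all 6 fits that left out 1 library. Under scaling on other genes of short coding sequence Fau was still called (-0.35, adjusted p = 0.0106), whereas Rps27a (-0.20, adjusted p = 0.0576), Rpl11 (-0.16, adjusted p = 0.0791) and Rpl5 (-0.12, adjusted p = 0.139) were not.

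Among the paralogs the values ranged from the lowest to the highest of all members. Rpl36al (ENSMUSG00000049751.7), an autosomal copy of the X-linked Rpl36a, was at 183, 191 and 177 CPM in WT and at 127, 123 and 112 CPM in knockout. This was the steepest decrease of the 87, to 65.4% of the WT mean, with groups far apart (-0.61 ± 0.065, adjusted p = 9.91e-05). Rpl36a itself was at 392, 416 and 350 CPM and at 351, 338 and 322 CPM, where the lowest WT and the highest knockout library overlapped (-0.20 ± 0.074, adjusted p = 0.0539). Besides a fit with a replicate block, given with the alternatives, it was called lower once the counts of its pseudogenes were added (adjusted p = 0.0489), by DESeq2 (adjusted p = 0.0324) and without WT replicate 3 (adjusted p = 0.0146). The ratio of Rpl36al to Rpl36a, read after the values were seen and not tested, was 0.466, 0.460 and 0.506 in WT and 0.360, 0.362 and 0.346 in knockout. The near-identical sequences of this pair make the split of reads between them uncertain.

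Rpl22l1, the paralog that can take the place of Rpl22, was at 161, 176 and 154 CPM in WT and at 138, 96.4 and 99.3 CPM in knockout. It was lower (-0.56 ± 0.138, adjusted p = 0.0138), with knockout replicate 1 well above the other 2, and the call was lost without WT replicate 2 (adjusted p = 0.0781). Its ratio to Rpl22 was 0.379, 0.397 and 0.372 in WT and 0.448, 0.297 and 0.353 in knockout. The groups overlapped and the difference of -0.08 on the log2 scale was not larger than the spread (exact two-sided permutation over 20 assignments, p = 0.7), and it turned to 0.06 without knockout replicate 2.

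Rps27l, a paralog of Rps27 that is known as a p53 target, was at 116, 139 and 107 CPM in WT and at 117, 132 and 113 CPM in knockout, with full overlap (0.00 ± 0.101, adjusted p = 0.986). Its ratio to Rps27 was 0.248, 0.264 and 0.241 in WT and 0.340, 0.371 and 0.359 in knockout. Every knockout library lay above every WT library, by 0.51 on the log2 scale, with an exact two-sided permutation p of 0.1, the smallest that 3 libraries against 3 allow. Rpl7l1, a paralog of Rpl7, was at 151, 182 and 144 CPM in WT and at 185, 184 and 170 CPM in knockout. WT replicate 2 lay among the knockout libraries, and the difference was not called (0.18 ± 0.087, adjusted p = 0.12) until that library was left out (0.28, adjusted p = 0.00608), or with upper-quartile factors, library totals or the stricter count filter (adjusted p = 0.0218, 0.0443 and 0.0485).

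The remaining entries of the rule were near the detection limit or unmoved. Rpl39l had 19, 33 and 1 counts in WT and 29, 11 and 1 in knockout, too few to read a direction (adjusted p = 0.83). Rps4l was at 0.784, 1.52 and 0.692 CPM in WT and at 0.619, 0.630 and 0.850 CPM in knockout (adjusted p = 0.238). Rps19bp1 was at 17.9, 20.03 and 14.9 CPM in WT and at 17.6, 17.5 and 16.1 CPM in knockout, inside the WT range (-0.04 ± 0.112, adjusted p = 0.761).

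Most members lay under their WT mean in each knockout library. Taken against each gene's WT mean, the median member was at 0.02, 0.03 and -0.06 in the WT libraries and at -0.22, -0.24 and -0.26 in the knockout libraries, on the log2 scale. In the knockout libraries 79, 80 and 83 of 87 members lay below their WT mean. In WT replicate 3 this held for 66 members, in WT replicate 1 for 35 and in WT replicate 2 for 19. The spread within a group was wide in Rpl13 and Rpl10a, named here after their values were seen. Rpl13 was at 667, 982 and 899 CPM in WT and at 690, 766 and 446 CPM in knockout, where WT replicate 1 fell under 2 of the knockout libraries. Rpl10a was at 570, 509 and 375 CPM in WT and at 422, 412 and 562 CPM in knockout, where knockout replicate 3 lay above the WT mean. Rpl13 was not called with all libraries (-0.42, adjusted p = 0.228) and was called lower without WT replicate 1 and knockout replicate 3 (-0.37, adjusted p = 0.0325). Without those 2 libraries, an alternative added after the data were seen, 20 members were called lower and 0 higher, where 12.8% of all genes were lower, and the median was -0.23.

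**Figure D3:**
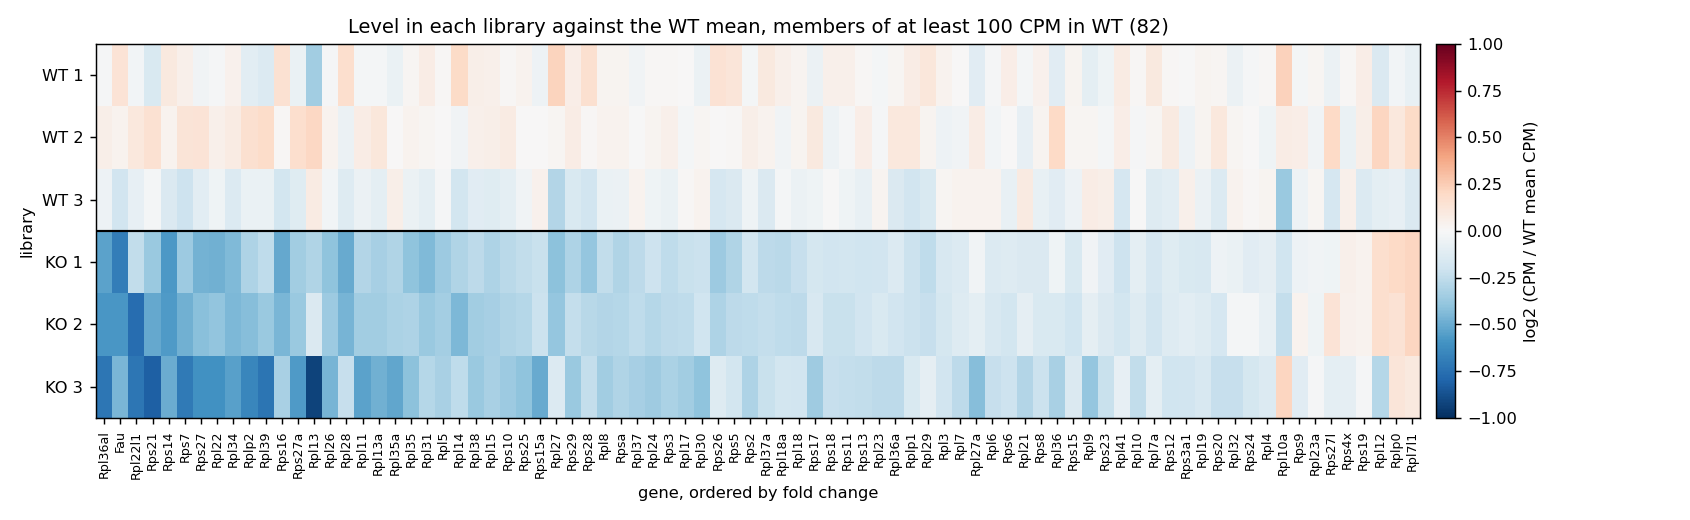
Level of each of the 82 members with a WT mean of at least 100 CPM in every library, as log2 of the CPM over that gene's WT mean; columns run in order of fold change, and blue is lower and red higher. The knockout rows are blue over most columns, the right end with Rplp0 and Rpl7l1 is red, and Rpl13 in knockout replicate 3 is the darkest cell.

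WT replicate 2 and knockout replicates 2 and 3 were the libraries with raised B cell markers. Without them knockout replicate 1 stands alone, its spread assumed to be that of WT. There 15 members were lower and 2 higher, where 18.6% of all genes were lower and 15.9% higher, and the median was -0.19. The 2 higher members were Rpl7l1 (0.33, adjusted p = 0.0126) and Rpl12 (0.29, adjusted p = 0.0217), the second of which was chosen after its value was seen. Rplp2, Rps27a, Rps7, Rpl11, Rpl13a, Rpl22l1, Rpl39, Rpl3 and Rpsa were no longer called there. Rps7, Rpl22l1, Rpl3 and Rpsa were also no longer called without WT replicate 1 and knockout replicate 3. The part of B cell RNA in the result was not tested.

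Coding length moved with these values, a comparison made after the data were seen. Ribosomal proteins are small: the 84 members with an annotated coding sequence had 75 to 1257 coding bases, with a median of 448. Of the 61 members with up to 600 coding bases 39 (63.9%) were lower, with a median of -0.27, and of the 23 longer ones 11 (47.8%) were lower, with a median of -0.18. Among 231 other genes with up to 600 coding bases and a mean of at least 100 CPM, 134 (58.0%) were lower and 21 higher, with a median of -0.28. Among 1885 longer genes of that level 34.3% were lower, with a median of -0.07. Over genes as points, which share libraries and are no replicates, Spearman's rho of coding length with fold change was 0.33 in the 84 members and 0.19 in other genes. A coding length was known for 82.4% of tested genes. Other genes with up to 600 coding bases held 10.33, 10.82 and 10.05% of counts in WT and 9.72, 9.21 and 9.45% in knockout, so they too were lower in every knockout library.

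**Figure D4:**
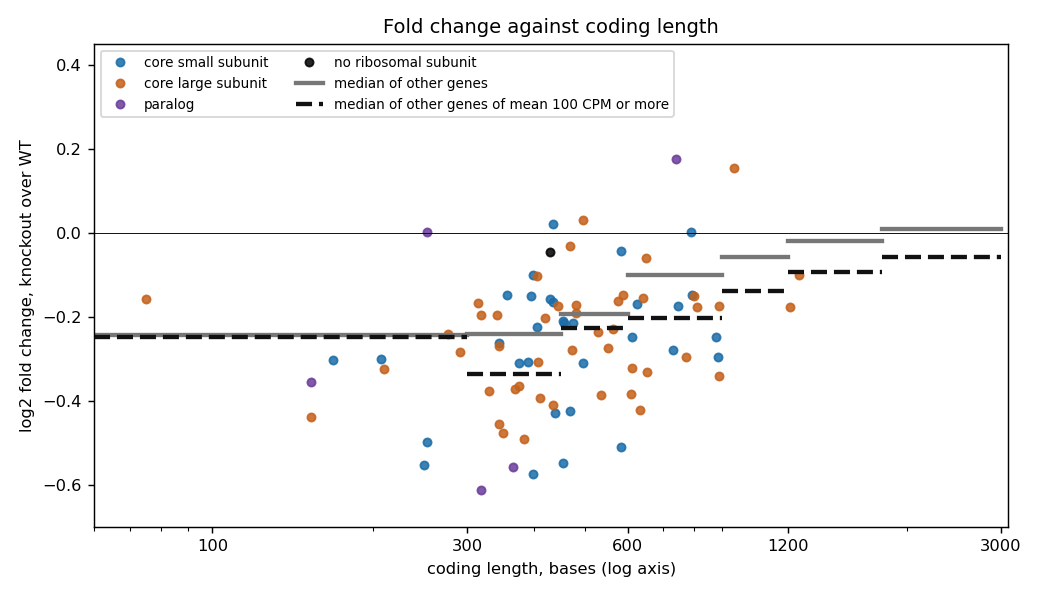
Log2 fold change of each member with a coding sequence against its coding length (log axis), with the median of other genes (solid lines) and of other genes of at least 100 CPM (dashed lines) in bins of length. The dashed median is -0.34 for genes of 300 to 450 bases and -0.06 for genes of 1800 to 3000 bases, and the members lie between -0.61 and 0.18.

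When TMM factors were taken only from other genes with up to 600 coding bases, the median of all genes shifted to 0.23. The members' median was then -0.02, with 9 lower (10.6% of all genes were) and 7 higher (39.2% of all genes were). The 9 were Fau, Rps7, Rps14, Rps21, Rps27, Rpl22, Rpl34, Rpl36al and Rpl26, and they were the same 9 that passed the test against 1.2-fold. This scaling raises all fold changes by a nearly constant amount, and the 1.2-fold test asks for a minimum decrease in the same libraries. The match is therefore largely built in and is no independent support. Rpl26, chosen after its values were seen, was at 977, 1009 and 964 CPM in WT and at 746, 764 and 713 CPM in knockout with the usual scaling (-0.41 ± 0.061, adjusted p = 0.000608). The 7 higher members there included Rplp0 (0.38, adjusted p = 0.00107), Rpl7l1 (0.40, adjusted p = 0.00145), Rps19 (0.25, adjusted p = 0.0107) and Rps27l (0.23, adjusted p = 0.0381).

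The start sequences were then set beside the fold changes. A RefSeq start region was matched for 65 of the 87 members. A C at the annotated start followed by at least 4 pyrimidines, searched on the transcribed strand only, was found in 14 of 65 (21.5%, Wilson 95% interval 13.3 to 33.0%) against 813 of 27025 RefSeq genes (3.01%). With the usual scaling 13 of these 14 members were lower, with a median of -0.35, the exception being Rps6. Of the 51 without it 26 were lower, with a median of -0.21. Among other tested genes 98 of 305 with the tract (32.1%) and 2733 of 10112 without it (27.0%) were lower, with medians of -0.05 and -0.02. Allowing the tract to begin within 2 bases of the annotated start gave 22 of 65 (33.85%) against 10.6% of RefSeq genes, and then 16 of 22 with it and 23 of 43 without it were lower, against 346 of 1229 and 2485 of 9188 among other tested genes. Under scaling on other short genes 9 members were lower, where 10.6% of all tested genes were. Of these 9, Fau, Rps21 and Rps27 had the tract at the annotated start. Rpl22, Rpl26, Rpl34, Rpl36al and Rps7 had none there, and no start region was matched for Rps14. The difference between members with and without the tract was not tested. The match depends on the exact base annotated as the start, so it describes the letters in these windows and no more.

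The other lists are read against all tested genes, of which 23.1% rose and 24.5% fell, or 39.2% and 10.6% under scaling on short genes, which moved the medians of these lists up. Among 25 mRNAs listed as TOP mRNAs outside the rule 5 (20%) rose and 10 (40.0%) fell while 10 missed the threshold. Their median was -0.14 and turned to 0.08, with 9 higher and 2 lower, under scaling on short genes. Eif3h, a subunit of the initiation factor eIF3, fell by 0.46 on the log2 scale (adjusted p = 0.000336). Gas5, a non-coding host of small nucleolar RNAs, went the other way, from 346 ± 25.6 to 524 ± 25.3 CPM (SD, n = 3 each; 0.60 ± 0.072, adjusted p = 0.000194). Rack1, named because the rule leaves it out, was at 1938 ± 152 and 1568 ± 19.4 CPM (SD, n = 3 each; -0.30 ± 0.073, adjusted p = 0.00732). Of 15 regulators of TOP mRNA translation 3 (20%) rose and 2 (13.3%) fell, neither share above that of all genes, with a median of -0.02 (0.06 under upper-quartile and 0.21 under short-gene scaling). Mlst8, a subunit of the mTOR complexes, rose by 0.86, the RNA-binding protein gene Tia1 rose by 0.44, and Eif4e, the cap-binding protein gene, fell by 0.46 on the log2 scale (adjusted p = 7.74e-05, 0.000559 and 0.000766).

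Genes that build the ribosome had another split. Of 24 ribosome biogenesis genes 10 (41.7%) rose and 1 (4.17%) fell while 13 missed the threshold, and the median was 0.17. Under short-gene scaling 17 rose and 0 fell, with a median of 0.40. Utp20, a factor of small subunit processing, rose from 143 ± 7.81 to 229 ± 10.1 CPM (SD, n = 3 each; 0.68 ± 0.063, adjusted p = 5.06e-05). Polr1a, the largest subunit of RNA polymerase I, rose from 121 ± 3.28 to 175 ± 5.68 CPM (SD, n = 3 each; 0.54 ± 0.055, adjusted p = 8.21e-05), and Gnl3, nucleostemin, rose by 0.63 (adjusted p = 0.000312). No test of the difference between this list and the members was made. Of 14 chaperones and importers of ribosomal proteins 1 (7.14%) rose and 3 (21.4%) fell, both shares under those of all genes, with a median of 0.06. Under short-gene scaling 10 rose and 1 fell, with a median of 0.29 where that of all genes was 0.23. Pdcd2l fell by 0.57 and Bccip by 0.34, and Tsr2, the chaperone of Rps26, rose by 0.66 on the log2 scale (adjusted p = 0.0011, 0.00443 and 0.00618).

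Of the 6 genes listed with the 5S particle and MDM2, 4 (66.7%) rose and 1 (16.7%) fell, with a median of 0.46. Mdm4 rose by 0.67, Mdm2 by 0.79 and Cdkn1a, a p53 target, by 0.85 on the log2 scale (adjusted p = 0.000397, 0.000886 and 0.00224). Of 19 ribosome quality control genes tested 0 rose and 4 (21.1%) fell, a share of decreases near that of all genes, with a median of -0.08. This turned to 0.14, with 8 higher and 1 lower, under short-gene scaling. Edf1, a sensor of collided ribosomes, fell by 0.39, and the ribosome rescue genes Hbs1l and Pelo fell by 0.30 and 0.33 (adjusted p = 0.00118, 0.00519 and 0.0269).

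The ribosomal proteins of mitochondria are the class nearest to the members in function. Of 78 such genes 3 (3.85%) rose and 43 (55.1%) fell while 32 missed the threshold, the median being -0.27, and 14 rose and 15 fell under short-gene scaling. Mrpl34 fell by 0.67, Mrps16 by 0.58 and Mrpl28 by 0.55 on the log2 scale (adjusted p = 0.000379, 0.000119 and 0.000369). Their share of counts was 0.355, 0.376 and 0.338% in WT and 0.322, 0.308 and 0.314% in knockout, with no overlap between groups.

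**Figure D5:**
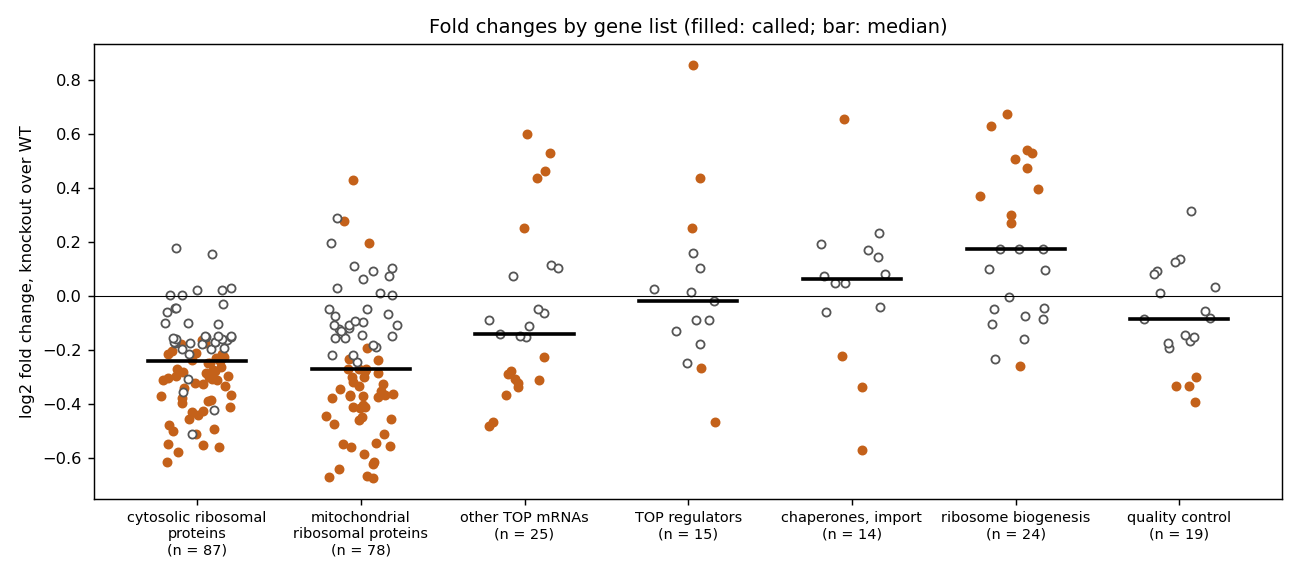
Log2 fold change of each tested gene in the members and 6 other lists; filled points were called, open points were not, and bars are medians. The bars of the cytosolic (-0.24) and mitochondrial (-0.27) ribosomal proteins lie below 0 and that of ribosome biogenesis (0.17) above it; under scaling on short genes the first 2 move to -0.02 and -0.04.

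Counts of pseudogenes bear on the members because reads can be divided between nearly identical entries. The 24 pseudogene entries held 0.203% ± 0.024 of counts in WT and 0.207% ± 0.008 in knockout (SD, n = 3 each), so members and pseudogenes together were at 8.43 and 7.54%. Of 23 tested entries 1 rose and 3 fell. Rpl17-ps3 fell by 0.37 (adjusted p = 0.0122) and Rpl28-ps1 by 0.18 (adjusted p = 0.0209). Rpl15-ps3 had 0 counts in each WT library and 533, 462 and 455 in knockout. Its parent Rpl15 was at 1159, 1165 and 1024 CPM in WT and at 899, 887 and 894 CPM in knockout. Adding each pseudogene's counts to its parent gave 52 members lower and 0 higher, against 50 and 0. With these counts added, 24.6% of all genes were lower and 23.2% higher.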

How the data were processed

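Libraries of polyadenylated RNA were made with a stranded mRNA kit, per the labels' protocols. The deposited values are estimated counts per gene in whole numbers, and Salmon, DESeq2 and DESeq are listed, with no version or role, per the submitters' processing notes. The genome build is not given in the sources used here. IDs were matched without version to GENCODE M21 symbols (15138 matched, 314 did not). Counts were analysed with edgeR 4.0.16: filterByExpr left 15361 genes (91 removed, no member among them), scaled by TMM, and genotype was the single term of a robust quasi-likelihood model with Benjamini-Hochberg adjustment across these genes and a threshold of 0.05. CPM are scaled by TMM unless stated. Each SE was derived from the test, as the absolute log2 fold change over the square root of its F statistic. The fit was also run on simulated data with the same dispersion in every gene and few changed genes. That setting differs from these data, so it lends the calls no support. Ratios were compared by exact permutation. The members, lists, markers and the rule for named genes were chosen with earlier results of these data known, so they are no independent support. Named were the 10 largest called changes each way (none was higher), the P-stalk, fusion, 5S and paralog members, Rps19bp1, 11 further members (Rps6, Rpl3, Rpl10, Rpl13a, Rpl22, Rpl36a, Rpl39, Rps27, Rpsa, Rps14 and Rps19) and the 3 called genes of smallest p in other lists, of which 1 is not reported here. Alternatives were other scalings, DESeq2 1.42.0, limma-voom (limma 3.58.1), a block for the replicate number, other filters, a minimum fold of 1.2, pseudogene counts added and each library left out; 3 were added after the data were seen. Intervals cover counting error only. No replicate pair was alike enough to be 1 library deposited again (chi-square per degree of freedom over members at least 23.45).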

Additional observations from a re-analysis of the deposited data

How the results depend on the processing

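The members' median stayed below 0 in every fit run. It was -0.16 with upper-quartile factors, -0.20 with library totals, -0.19 with at least 50 counts in 3 libraries, -0.19 without the 3 libraries with raised B cell markers and -0.015 with TMM over other short genes, and -0.27 to -0.21 with 1 library left out. Called lower were 9 members against 1.2-fold, 20 without WT replicate 1 and knockout replicate 3, 15 without the 3 libraries and 9 with TMM over short genes, 35 to 55 with 1 library left out, and 35 to 60 in the other fits (60 by DESeq2). Called higher were 2 with upper-quartile factors, with library totals and with at least 50 counts (Rplp0 and Rpl7l1 each time), 1 by DESeq2 (Rplp0), 2 without the 3 libraries, 7 with TMM over short genes, and 0 to 2 with 1 library left out. Of the 50 called lower, 33 were called in all 6 fits without 1 library. The difference in share was -0.99 to -0.80 percentage points with 1 library left out.

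Over all fits 39 of 87 members took both signs. Among the named members the turns were as follows. Rps19bp1 was at 0.035 with upper-quartile factors, 0.0 with at least 50 counts, -0.152 to 0.055 with 1 library left out, 0.007 without WT replicate 1 and knockout replicate 3, 0.10 without the 3 libraries and 0.18 with TMM over short genes. Rps27l was at -0.002 with TMM without members and -0.076 to 0.115 with 1 library left out. Rpl39l was at 0.24 without WT replicate 1 and knockout replicate 3 and 1.44 without the 3 libraries, and -1.43 to 0.46 with 1 library left out. Rps19 was at -0.041 to 0.055 with 1 library left out. With TMM over short genes Rpl10 was at 0.065, Rpl3 at 0.044, Rpl36a at 0.03, Rplp1 at 0.032 and Rps6 at 0.049. The log2 ratio of Rpl22l1 to Rpl22 ran from -0.24 to 0.058 without 1 library, above 0 only without knockout replicate 2. Starts with a tract were 33.85% within 2 bases. The causes were not tested. Over 28 named members and 21 settings, 499 of 586 values kept direction and side of the threshold.

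Same-numbered libraries did not deviate together over all genes (r of -0.10, 0.09 and -0.26). Over the members r was -0.10, 0.43 and 0.31, but WT replicate 2 went most with knockout replicate 1 (0.75), so the numbers were not taken to pair libraries. With a replicate block 46 members were lower and 0 higher, where 24.4% of all genes were lower and 22.6% higher, and the median was -0.25. Among the named members Rpl36a was called there (adjusted p = 0.0465) and Rpl3 was not (adjusted p = 0.0759). Estimated counts of 1 to 33 for Rpl39l and 9 to 13 for Rps3a3 allow no reading of direction.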

Other observations

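Some ribosomal protein entries were high in WT replicate 1 and knockout replicate 3 and low in the other 4 libraries. The pseudogene Rps2-ps10 had 1211, 214 and 182 counts in WT and 161, 164 and 1392 in knockout, and Rpl36a-ps1 had 232, 35 and 26 in WT and 17, 53 and 276 in knockout. Rpl37rt, a member annotated as a pseudogene, was at 8.11, 3.33 and 2.05 CPM in WT and at 1.61, 1.83 and 8.19 CPM in knockout. Over all genes, the deviations of WT replicate 1 and knockout replicate 3 from their group means had a correlation of 0.27, the highest of the 9 pairs of a WT and a knockout library. These entries were chosen after their values were seen, and no test was made.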
